A study of Mus musculus with 18 samples.

Results

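Complement is a set of secreted and membrane proteins that acts as a cascade of proteases, and 9 of its genes were followed here in mouse aorta among 55453 gene symbols counted in every library: C1ra, C1s1, C4b, C2, C3, Cfb, C7, Serping1 and Cd55. They were chosen by symbol from a list proposed with the genotype comparisons of these libraries already known. The values of mutant against wild type are therefore given below as a description. Counts of these genes that passed a test fitted across all genes are printed beside the share of all genes that passed, and nothing is read from them. All 9 symbols were present in both count tables, and all 9 passed the filter on low counts in both experiments.

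The libraries came from mice in which a CArG box of Tspan2, the DNA element bound by serum response factor, had been rewritten in the germ line. In the first experiment, Cas9 cutting and homology-directed repair (HDR) had installed a 3-base substitution, and homozygous Tspan2 sg/sg aortae were compared with wild type, 5 libraries of each, at 12 weeks, in mice labelled C57BL/6. In the second, the prime editor PE2 had installed a 1-base substitution, and homozygous Tspan2 peg/peg aortae were compared with wild type, 4 libraries of each, at 8 weeks, in mice labelled FVB/N/B6(Cg)-Tyrc-2J/J. The labels gave 3 females and 2 males for each HDR genotype, 4 females for peg/peg, and 3 females and 1 male for the PE2 wild type. Both edits were carried by all cells of the animal, and the study's methods describe FVB/NJ and B6(Cg) parents for the injected oocytes of both experiments and a later cross of founders to C57BL/6J. Each library was bulk RNA of 1 aorta cleaned of the tissue around it, so fewer cells of a type and less RNA per cell cannot be told apart. The methods name 2 founders bred for the PE2 allele and give no number for the HDR allele, and they do not tie libraries to founders. Age, sequencing depth, edit and the strain as labelled differed between the experiments, and no level was tested across them.

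In the classical pathway, C1q binds a target and carries the proteases C1r and C1s, encoded in the mouse by C1ra and C1s1. C1s cuts C4, here C4b, and C2, and their fragments form an enzyme that cuts C3, the protein on which all routes meet. Cfb encodes factor B, the protease of the alternative pathway, which amplifies the deposition of C3. C7 belongs to the terminal membrane attack complex, Serping1 encodes the C1 inhibitor, and Cd55 encodes decay-accelerating factor, a membrane protein that takes C3-cutting enzymes apart. The liver makes most plasma complement, and fibroblasts, macrophages and other cells of tissues make several components locally.

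Depth was 17290992 to 24880385 counts per library in the HDR experiment and 38820265 to 44895615 in the PE2 experiment. The edited gene itself separated the genotypes, with Tspan2 at 112 to 265 CPM (a gene's count as parts per 1e6 of its library's total after TMM scaling) in HDR wild type, 16.0 to 36.6 in sg/sg, 186 to 284 in PE2 wild type and 11.9 to 25.5 in peg/peg. Libraries are named below as their columns were, WT_2 to WT_6 and Mut_2 to Mut_6 in the HDR table, and by genotype and replicate in the PE2 table. The library labelled peg/peg replicate 3 stood apart. It held 5570 CPM of Des and 8942 CPM of Actg2, muscle genes that were at no more than 111 and 456 CPM in the other 7 PE2 libraries. It also held 55.7 CPM of Hoxa13, a gene of the hind end of the body axis, 229 CPM of the urothelial gene Upk1a and 175 CPM of the epithelial keratin Krt5, against at most 0.331, 13.7 and 7.48 CPM in the other PE2 libraries. In the HDR experiment WT_3 was highest for the muscle and Hox genes, with Des at 945, Actg2 at 1109 and Hoxa13 at 9.36 CPM against at most 111, 192 and 1.07 CPM in the other 9 libraries. Urothelial genes did not set WT_3 apart, since Upk1a was at 14.1 CPM in it and 16.6 CPM in Mut_4, and Upk1b at 20.1 and 30.5 CPM. Krt5 was at 21.4 CPM in WT_3 and at most 6.79 CPM elsewhere in HDR. A list of 9 such bladder-type transcripts, written after these values had been seen, summed to 15380 CPM in peg/peg replicate 3 and 257 to 572 CPM elsewhere in PE2. It summed to 2143 CPM in WT_3 and 139 to 304 CPM elsewhere in HDR. In peg/peg replicate 3 and WT_3 most of this sum was Des and Actg2, at the values above. Results that rest on these libraries are given with and without them, except the fits of marker lists, which use all libraries. Y-linked transcripts were present in WT_5, WT_6, Mut_5 and Mut_6 of the HDR table, with Ddx3y at 178 to 234 CPM, and at 0 counts in the other 6. They were also present in PE2 wild-type replicate 4, which is labelled male.

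The upstream sequences of 3 members are shown because each held 1 match to a motif of a factor of inflammatory or cytokine signalling, through which complement genes are known to be induced. They are the 250 bases before the start of the transcript in RefSeq, build GRCm38.p6, written 5′ to 3′ along the gene, with the match in capitals.

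C3, chr17:57228137-57228386, minus strand: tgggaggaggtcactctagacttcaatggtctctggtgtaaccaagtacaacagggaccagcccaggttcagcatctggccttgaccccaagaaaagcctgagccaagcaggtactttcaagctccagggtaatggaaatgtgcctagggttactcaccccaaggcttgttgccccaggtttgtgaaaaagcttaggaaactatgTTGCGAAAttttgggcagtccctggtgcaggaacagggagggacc
C1s1, chr6:124542360-124542609, minus strand: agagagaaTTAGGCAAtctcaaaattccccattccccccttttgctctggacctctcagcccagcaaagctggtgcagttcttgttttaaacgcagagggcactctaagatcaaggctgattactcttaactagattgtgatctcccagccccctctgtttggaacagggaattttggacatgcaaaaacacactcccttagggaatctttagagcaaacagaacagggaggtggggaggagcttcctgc
C7, chr15:5063774-5064023, minus strand: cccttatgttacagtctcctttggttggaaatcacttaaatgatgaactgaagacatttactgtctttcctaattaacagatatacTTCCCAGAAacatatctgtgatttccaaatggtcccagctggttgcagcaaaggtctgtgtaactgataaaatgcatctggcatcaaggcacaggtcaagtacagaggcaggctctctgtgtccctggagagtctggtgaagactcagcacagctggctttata

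In C3 the capitals mark the C/EBP core TTGCNNAA, which lies at -45 to -38 from the start. The same core, read on the other strand, lies at -242 to -235 in C1s1, which has a second RefSeq start nearby whose window held no match. In C7 the capitals mark the core of the element bound by STAT factors, TTCNNNGAA, at -164 to -156. On both strands, 9.56% of all 32851 mouse promoter windows of this length held the C/EBP core and 7.02% held the STAT core, so either match is a common one. Windows were given for 5 of the 9 members, the others being C1ra and Cd55, which held no match to these cores. None of the 5 held a CArG box (present in 1.47% of all windows), the interferon response core of GAAA, any 2 bases and GAAA (2.98%), or the NF-kB consensus (7.25%). These matches are letters in a window and were not tested for binding.

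The members lie on 5 chromosomes, and none is on chromosome 3 with Tspan2. In GRCm38 with Gencode annotation, Cd55 (ENSMUSG00000026399) lies at chr1:130439027-130462744 and Serping1 (ENSMUSG00000023224) at chr2:84765387-84775444. C1ra (ENSMUSG00000055172, chr6:124512405-124523443) and C1s1 (ENSMUSG00000038521, chr6:124530345-124542359) are 6.9 kb apart, on opposite strands, and C7 (ENSMUSG00000079105) is at chr15:4988762-5063740. C4b (ENSMUSG00000073418, chr17:34728380-34743882), Cfb (ENSMUSG00000090231, chr17:34856374-34862518) and C2 (ENSMUSG00000024371, chr17:34862604-34898265) lie in the H2 region of chromosome 17, with 85 bases between Cfb and C2. C3 (ENSMUSG00000024164) lies farther along it at chr17:57203970-57228136. Cfb and C2 are annotated together with a read-through gene, Gm20547, which shares 2246 bases, or 79.5%, of the exons of Cfb and 1656 bases, or 42.8%, of those of C2, and which was listed at 0 counts in all 18 libraries. The values of Cfb and C2 are therefore uncertain, since reads in shared exons may not have been counted to either gene. The exons of C1s1 share 576 bases (18.4%) with the antisense gene Gm16567, and those of Cd55 share 102 bases (2.1%) with Gm16083. Whether counting used strand is not given in the sources used here, so reads of these pairs may not be separated. Near-identical copies can also split reads. C1rb, C1s2 and Cd55b stayed at or under 0.154, 0.338 and 0.189 CPM in every library, while C4a reached 1.59 CPM. These low values cannot show whether reads matching a member and its copy were left uncounted.

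**Figure D1:**
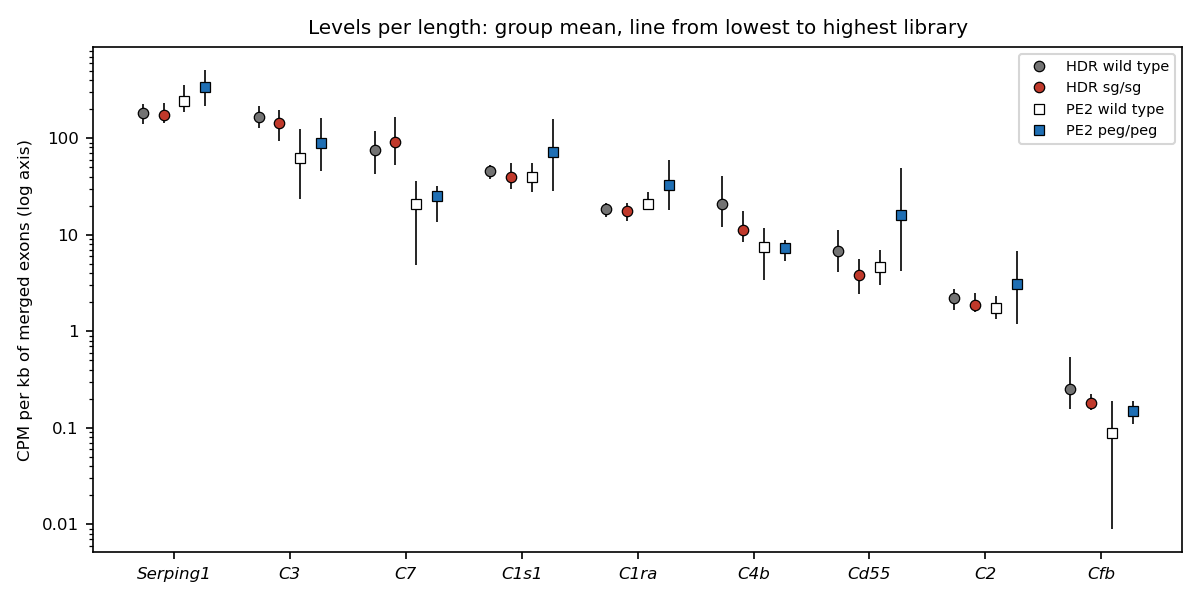
Level per length of each complement gene on a log axis, in CPM per kb of merged exons. Points are group means over 5 (HDR) or 4 (PE2) libraries and lines run from the lowest to the highest library. Serping1 has the highest mean in all 4 groups and Cfb the lowest, at 0.0874 to 0.25 CPM per kb.

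Divided by merged exon length, the members spanned about 3 orders of magnitude. The low end of this span is Cfb, whose value is uncertain because of the shared exons given above. Serping1, the inhibitor, was highest in each group, with a mean of 183 ± 37.3 CPM per kb (SD, n = 5) in HDR wild type and 243 ± 76.1 (SD, n = 4) in PE2 wild type. C3 followed at 164 ± 35.4 in HDR wild type and 62.1 ± 46.2 in PE2 wild type. The ranges of these neighbours overlapped in both HDR genotypes but not in either PE2 genotype, where the mean of Serping1 was 3.91 times that of C3 in wild type and 3.80 times in peg/peg. C7, C1s1, C4b and C1ra came next in HDR wild type, at 76.3, 45.9, 21.0 and 18.4 CPM per kb, and each overlapped the next in that order. In PE2 wild type the order of these was C1s1 (39.6), C7 (21.0), C1ra (21.0) and C4b (7.39 CPM per kb), and C7 and C1ra had almost the same mean. Cd55 was at 6.71 and 4.59 CPM per kb and C2 at 2.21 and 1.76 in HDR and PE2 wild type, without overlap between Cd55 and C2 in either. Cfb was lowest at 0.250 and 0.0874 CPM per kb, 8.87 and 20.1 times below C2. Divided instead by the 0.579 kb that it does not share with the read-through gene, the same CPM of Cfb gave 1.218 CPM per kb in HDR wild type. The CPM of C2 divided by its unshared 2.216 kb gave 3.87. Reads were not counted over these stretches, so the values hold only if no read in shared exons was counted.

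Of the summed CPM of the 9 genes, not divided by length, C3 supplied 30.5 to 56.8% in the HDR libraries and 15.1 to 33.4% in the PE2 libraries. Serping1 supplied 19.9 to 29.2% and 38.6 to 56.7%. C7 lay between 115 and 447 CPM in the 10 HDR libraries and between 13.1 and 97.2 CPM in the 8 PE2 libraries. These are values side by side from separately counted tables.

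**Figure D2:**
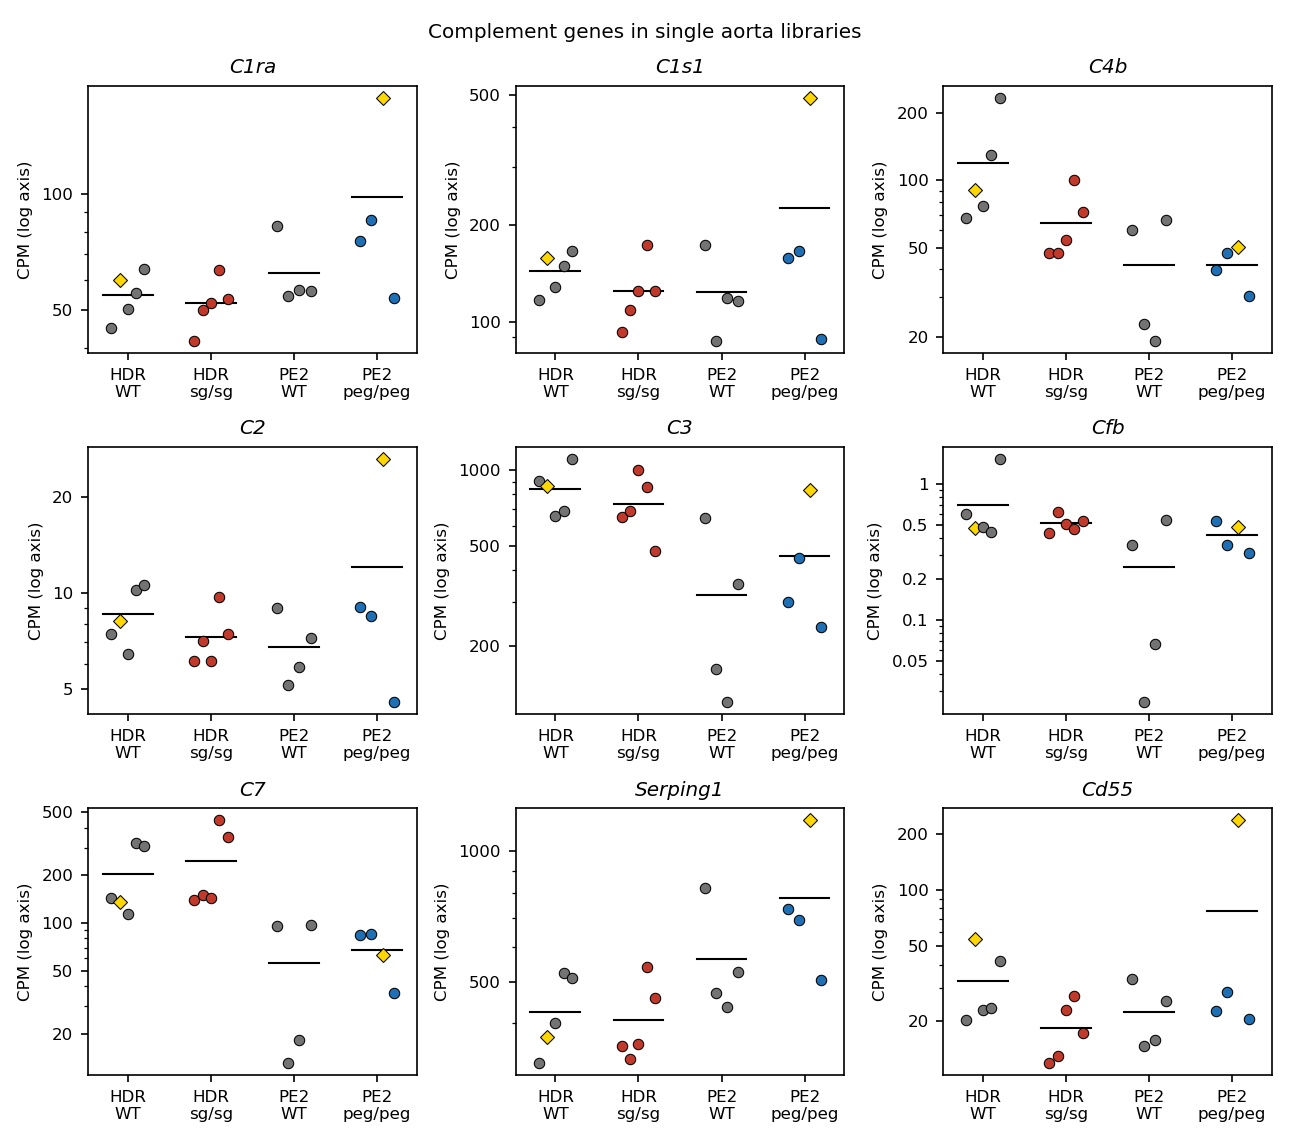
CPM of the 9 complement genes on log axes, 1 point per aorta library, with the mean of each group as a bar. Gold diamonds are WT_3 and peg/peg replicate 3. The ranges of mutant and wild type overlap in every panel, and peg/peg replicate 3 is the highest PE2 library for C1ra, C1s1, C2, C3, Serping1 and Cd55.

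In the HDR experiment, 8 of the 9 genes had a lower fitted level in sg/sg and 1 had a higher one, with a median log2 fold change of -0.20 beside 0.003 over all 16423 genes tested. Single libraries moved this summary: it was -0.08 with 6 lower and 3 higher without WT_6, and -0.35 with 9 lower without Mut_5. The edgeR quasi-likelihood test called none of the 9 at an adjusted p under 0.05, where 0.00609% of all genes were called, and DESeq2, which called 0.00933% of genes, and limma-voom also called none. At an unadjusted p under 0.05 there were 2 lower and 0 higher members by edgeR, beside 1.63% and 0.353% of all genes, with 1 lower without WT_3 and 0 lower without WT_6, Mut_2 or Mut_3. The ranges of the genotypes overlapped for all 9, as they did for all but 0.317% of genes.

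C4b, the mouse C4 of the classical pathway, was at 68.1, 90.1, 76.9, 130 and 232 CPM in WT_2 to WT_6 and at 47.5, 47.5, 54.2, 99.9 and 72.3 CPM in Mut_2 to Mut_6. The highest library was WT_6, and Mut_5 and Mut_6 were inside the wild-type range. The log2 fold change was -0.90 ± 0.34 (SE, n = 5 against 5), and it ranged from -1.11 without Mut_5 to -0.51 without WT_6. Within the 6 libraries without Y-linked transcripts, C4b was 68.1 to 90.1 CPM in wild type and 47.5 to 54.2 CPM in sg/sg. Within the other 4 it was 130 and 232 CPM against 99.9 and 72.3 CPM. With the presence of these transcripts as a covariate, an alternative added after seeing the data, the log2 fold change was -0.82 ± 0.17.

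Cd55, the membrane regulator, was at 20.1, 54.8, 22.8, 23.3 and 41.9 CPM in HDR wild type and at 11.9, 12.98, 22.7, 27.2 and 17.1 CPM in sg/sg. Its highest HDR library was WT_3, the one highest for the bladder-type list, mainly through Des and Actg2. The log2 fold change was -0.83 ± 0.32 with all libraries and -0.56 ± 0.29 without WT_3.

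The remaining 7 genes differed less between the HDR genotypes, and their libraries were mixed. C3 was at 904, 865, 654, 687 and 1105 CPM in wild type and at 648, 687, 1003, 856 and 477 CPM in sg/sg, a log2 fold change of -0.20 ± 0.21. The C1 proteases were close to level, with C1ra at 44.9 to 64.1 against 41.6 to 63.5 CPM (-0.07 ± 0.13) and C1s1 at 117 to 166 against 93.1 to 173 CPM (-0.20 ± 0.16). Serping1 was at 324 to 523 CPM in wild type and 331 to 540 CPM in sg/sg (-0.06 ± 0.18). C2 was at 6.44 to 10.6 against 6.11 to 9.68 CPM, and its log2 fold change was -0.23 ± 0.18. Cfb rested on 8 to 36 counts per library, with WT_6 at 1.52 CPM and all others at or below 0.627 CPM. Its log2 fold change of -0.46 ± 0.38 became 0.04 ± 0.27 without WT_6. C7 had the only positive value, 0.27 ± 0.41, and it became -0.05 without Mut_5.

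C7 followed the presence of Y-linked transcripts more closely than genotype. It was at 143, 136 and 115 CPM in WT_2 to WT_4 and 140, 151 and 144 CPM in Mut_2 to Mut_4, but at 320 and 306.9 CPM in WT_5 and WT_6 and 447 and 352 CPM in Mut_5 and Mut_6. The 4 libraries with these transcripts averaged 2.58 times the other 6 for C7. Serping1 likewise did not overlap, at 457 to 540 CPM with and 324 to 400 CPM without. These were 2 of the 9 genes, where 9.49% of all genes tested were higher without overlap in the same 4 libraries. C4b averaged 2.09 times higher in the 4, with overlap. The same 4 libraries carry the numbers 5 and 6 in their column names, so sex and any other difference between libraries so numbered cannot be told apart here. In the PE2 experiment, the library with Y-linked transcripts, wild-type replicate 4, had C7 at 97.2 CPM, next to 96.2 CPM in wild-type replicate 1, which lacked them. The split was looked at after the values had been seen.

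**Figure D3:**
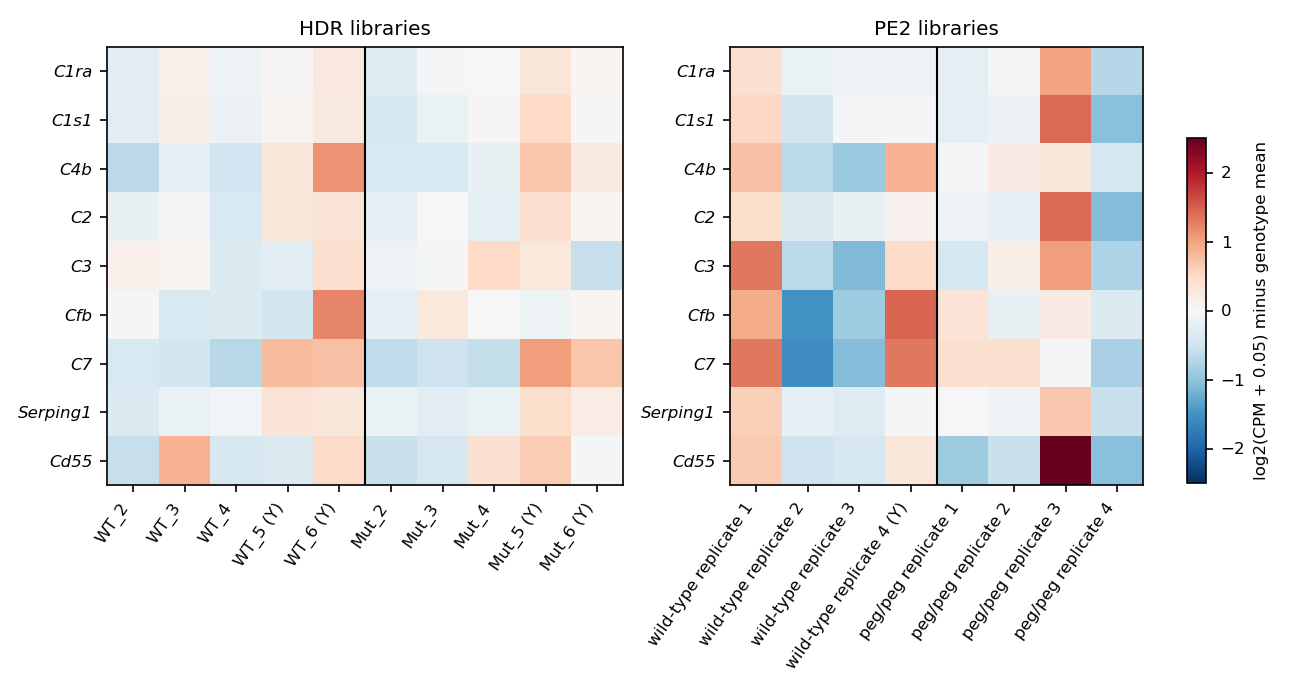
Deviation of each library from the mean of its own genotype, in log2(CPM + 0.05), for the 9 genes in the HDR (left) and PE2 (right) experiments. Red is above and blue below the genotype mean, black lines part wild type from mutant, and (Y) marks libraries with Y-linked transcripts. C7 is red in the 4 HDR libraries so marked, and most genes are red together in wild-type replicate 1 and peg/peg replicate 3.

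In the PE2 experiment the fitted levels lay the other way, with 8 of the 9 genes higher in peg/peg and 1 lower, and a median log2 fold change of 0.65 beside 0.013 over all 16401 genes tested. None of the 9 was called by edgeR, which called 0.0061% of all genes, nor by DESeq2 (0.189% of genes called) or limma-voom. DESeq2 gave no p for Cd55, whose counts it set aside as an outlier. At an unadjusted p under 0.05 there were 0 higher and 0 lower members by edgeR, where 3.04% and 1.27% of all genes passed. Single libraries moved this count. Higher members numbered 4 without peg/peg replicate 4, beside 969 of 16787 genes. There was 1 without wild-type replicate 1, beside 440 of 16721 genes, and 1 without peg/peg replicate 1, beside 547 of 16701. The ranges overlapped for all 9, and 2.54% of all genes did not overlap. The median fell to 0.14 without peg/peg replicate 3, where the same test again called none of the 9, beside 0.012% of all genes, and 0 were higher at an unadjusted p under 0.05, beside 2.19%. It was 0.98 without wild-type replicate 1 and 0.40 without wild-type replicate 2.

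**Figure D4:**
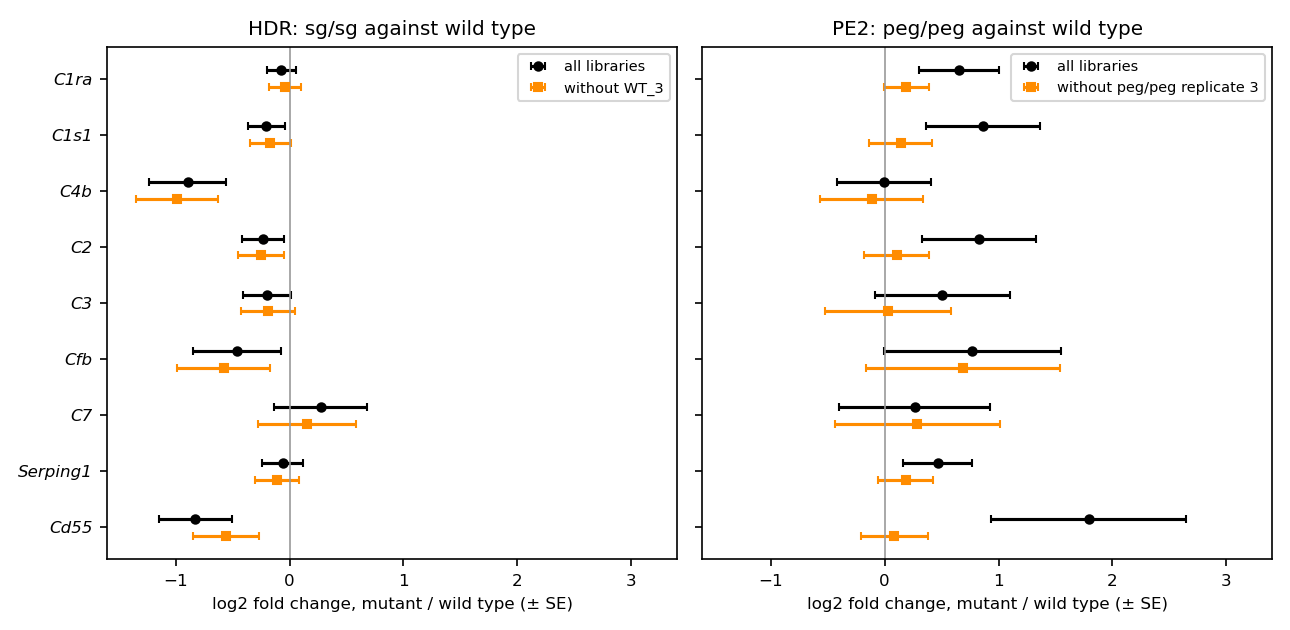
Log2 fold change of mutant against wild type, with its standard error, for each gene in the HDR (left) and PE2 (right) experiments. Black circles use all libraries and orange squares leave out WT_3 or peg/peg replicate 3. In PE2, Cd55 moves from 1.79 to 0.08 and C1s1 from 0.86 to 0.14, while C7 and Cfb move little.

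The early proteases and C2 were highest in the same PE2 library. C1s1 was at 173, 87.6, 119 and 116 CPM in wild-type replicates 1 to 4 and at 158, 165, 490 and 88.9 CPM in peg/peg replicates 1 to 4. Replicate 3 of peg/peg was 2.83 times the next highest library, and the other 3 were within the wild-type spread. The log2 fold change of C1s1 was 0.86 ± 0.50 (SE, n = 4 against 4) with this library and 0.14 ± 0.27 without. For C1ra the peg/peg libraries were at 75.5, 85.8, 178 and 53.9 CPM and the wild type at 82.6, 54.6, 56.5 and 56.2 CPM, a change of 0.65 ± 0.35 that was 0.19 ± 0.20 without the library. C2 was at 9.06, 8.45, 26.2 and 4.56 CPM in peg/peg against 8.99, 5.13, 5.85 and 7.21 CPM in wild type, and its change went from 0.83 ± 0.50 to 0.11 ± 0.29.

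Cd55 showed the widest gap. Wild type was at 33.3, 14.7, 15.7 and 25.5 CPM and peg/peg at 22.5, 28.4, 237 and 20.4 CPM. The library labelled peg/peg replicate 3 was 7.11 times the next highest of the 8, and the other peg/peg libraries were inside the wild-type range. The log2 fold change was 1.79 ± 0.85 with it and 0.08 ± 0.29 without.

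C3, the central component, was among the most variable of the well-counted members, at 642, 162, 120 and 353 CPM in wild type and 298, 448, 833 and 237 CPM in peg/peg. Wild-type replicate 1 alone exceeded 3 of the 4 peg/peg libraries. The log2 fold change of C3 was 0.51 ± 0.59 with all libraries, 0.03 ± 0.55 without peg/peg replicate 3 and 1.09 without wild-type replicate 1. Serping1 was at 824, 471, 437 and 525 CPM against 737, 694, 1181 and 504 CPM (0.47 ± 0.31, or 0.18 ± 0.24 without the library).

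The other PE2 members were not highest in peg/peg replicate 3. C4b was at 60.03, 22.8, 19.2 and 66.3 CPM in wild type and at 39.8, 47.2, 50.2 and 30.3 CPM in peg/peg, with equal means of 42.1 and 41.9 CPM and a log2 fold change of -0.01 ± 0.42. C7 was at 96.2, 13.1, 18.3 and 97.2 CPM in wild type, which split into a high and a low pair, and at 84.6, 85.8, 62.8 and 36.4 CPM in peg/peg (0.26 ± 0.66, from -0.07 without wild-type replicate 2 to 0.66 without wild-type replicate 4). Cfb rested on 1 to 22 counts per library, at 0.357, 0.025, 0.0662 and 0.539 CPM against 0.533, 0.356, 0.483 and 0.313 CPM. For C3, C4b, C7, Cfb, Serping1, C2 and Cd55 the same wild-type libraries, replicates 1 and 4, were the high ones. For C1ra and C1s1, wild-type replicate 3 was slightly above replicate 4.

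**Figure D5:**
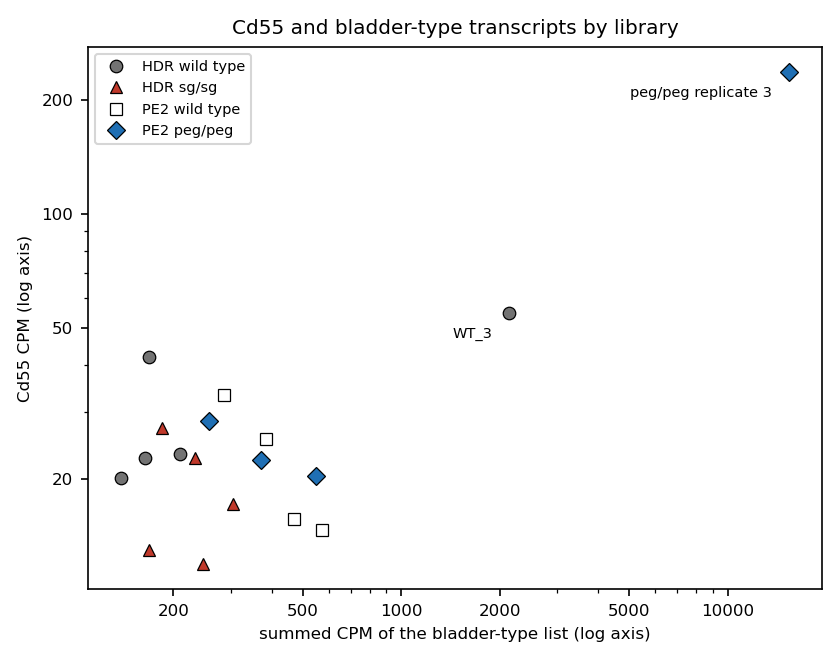
Cd55 in CPM against the summed CPM of 9 bladder-type transcripts, both on log axes, 1 point per library. The libraries labelled peg/peg replicate 3 (237 CPM of Cd55) and WT_3 (54.8 CPM) lie farthest to the right and highest, and the other 16 libraries are at 11.9 to 41.9 CPM of Cd55. In WT_3 and peg/peg replicate 3 most of the sum is Des and Actg2. The list was written after these values had been seen, and its relation to Cd55 was not tested.

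The change in PE2 minus the change in HDR was positive for 8 of the 9 genes, with a median of 0.88 on the log2 scale. Of 18094 genes tested across the 18 libraries 0% were called at an adjusted p under 0.05. The difference was 2.61 ± 0.87 for Cd55 and 1.05 ± 0.49 for C1s1. Without peg/peg replicate 3 these were 0.90 ± 0.47 and 0.34 ± 0.31, and the median difference was 0.33. At an unadjusted p under 0.05 with the PE2 change above the HDR change there were 2 of the 9 with all libraries, where 3.91% of all genes passed. There were 0 without peg/peg replicate 3, beside 353 of 18333 genes, and 6 without PE2 wild-type replicate 1, beside 886 of 18403. Nothing is read from these counts. Values of the same gene in both comparisons are thus C4b -0.90 in HDR and -0.01 in PE2, and Cd55 -0.83 in HDR and 1.79, or 0.08 without that library, in PE2.

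Of 51 other complement genes in the tables, from a list that covers initiators, components, regulators and receptors, 33 passed the filter in HDR and 34 in PE2. In HDR none was called by edgeR, DESeq2 or limma-voom, and 9 of the 33 were lower and 0 higher at an unadjusted p under 0.05, beside 1.63% and 0.353% of all genes. The median log2 fold change was -0.31 by edgeR, -0.18 without WT_6, -0.20 without Mut_6, -0.08 in the libraries without Y-linked transcripts, where 3 passed, and -0.05 by DESeq2 over 50 genes. The 9 were C1qa, C1qb, C1qc, the lectin Fcna, properdin (Cfp), the regulator Cd59b, and the receptors or receptor chains C5ar1, Itgb2 and Vsig4, and 4 of them, C1qa, Fcna, Cd59b and C5ar1, still passed without WT_6. C1qa, a chain of the recognition protein of the classical pathway, was at 23.5, 38.4, 24.7, 41.4 and 78.9 CPM in wild type and 19.2, 18.3, 21.6, 27.2 and 25.1 CPM in sg/sg. Its change was -0.89 ± 0.30, with an adjusted p of 1.0 by edgeR. Macrophages are the main source of C1q in tissues. Of their listed markers 10 of 10 were also lower in sg/sg, 8 at an unadjusted p under 0.05. C5ar1 is on both lists, so for that gene this is the same value given again. The macrophage markers summed to 277 to 636 CPM in wild type, highest in WT_6, and 210 to 342 CPM in sg/sg. Fits of the marker lists are given with all libraries only. Of 10 fibroblast markers 9 were lower, at sums of 6993 to 12600 against 6221 to 8857 CPM. All 8 adipocyte markers were lower too (median -0.48), as were 8 of 10 interferon-response genes (-0.24), while 6 of 8 endothelial and 6 of 8 smooth muscle markers were higher (0.06 and 0.11). The part of these cell types in the HDR values was not tested.

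In PE2, edgeR and limma-voom called none of the 34. At an unadjusted p under 0.05 edgeR passed 2 higher and 0 lower, Cfi and Colec10, beside 3.04% and 1.27% of all genes. The median log2 fold change was 0.11, and it ran from 0.0066 without peg/peg replicate 2 to 0.25 without wild-type replicate 1. DESeq2 called 1, Cfi, beside 0.189% of genes. Cfi encodes factor I, the protease that inactivates C3b and C4b. Its counts were 0, 0, 3 and 1 in wild type and 57, 36, 14 and 13 in peg/peg. The genotypes thus did not overlap, as was so for 2.54% of all genes. In CPM these peg/peg libraries were at 1.38, 0.916, 0.308 and 0.339. The adjusted p of Cfi was 0.0031 by DESeq2 (log2 fold change 4.96 ± 1.06, a value that depends on how the zeros are treated) and 0.86 by edgeR's quasi-likelihood test. In HDR, Cfi was at or under 0.339 CPM in all 10 libraries. Cfi is on chromosome 3 at chr3:129835884-129875332, 27.0 Mb beyond Tspan2 (chr3:102734529-102801513). Without peg/peg replicate 3, DESeq2 called 0.51% of genes, among them Cfi (adjusted p = 0.00046) and C4a (log2 fold change -2.20 ± 0.52, adjusted p = 0.0098). C4a, the neighbouring copy of C4b, was at 34, 45, 28 and 65 counts in PE2 wild type and at 7, 9, 66 and 11 counts in peg/peg, the high value being replicate 3. The edgeR test gave C4a an adjusted p of 0.51 on the same 7 libraries. C4b showed no such pattern in these libraries, as given above.

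Of the regulators outside the list of 9, Clu, which binds terminal complexes, was at 379 to 538 CPM in HDR wild type and 437 to 616 CPM in sg/sg (0.17 ± 0.15), and Cr1l, the mouse Crry, at 70.6 to 84.4 against 63.1 to 97.9 CPM (0.03 ± 0.12). In the library labelled peg/peg replicate 3, Clu was at 115 CPM, below all 7 other PE2 libraries, where it was at 621 to 837 CPM. Factor D (Cfd), which activates factor B and is made by fat cells, ran from 257 to 2072 CPM in HDR and from 93.6 to 1323 CPM in PE2. The 8 adipocyte markers summed to 695 to 4616 CPM and 207 to 4972 CPM, highest in WT_6 and lowest in peg/peg replicate 3 of the respective experiments.

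The other terminal components were scarcely counted, unlike C7. C8a, C8b and C9 had 0 to 4 counts in every library, Hc, which encodes C5, had 1 to 12 and C6 had 0 to 41, against 523 to 9568 counts of C7. The plasma lectins Mbl1 and Mbl2 had 0 or 1 count. The 6 skeletal muscle markers summed to 5.25 to 125 CPM in HDR, highest in WT_3, and to 7.75 to 1133 CPM in PE2, highest in peg/peg replicate 3. Acta1, Ckm and Tnnt3 made up most of these high sums, at 76.9, 30.6 and 16.0 CPM in WT_3 and 756, 300 and 74.2 CPM in peg/peg replicate 3. The other markers, Myh4, Mylpf and Atp2a1, were under 1 CPM in both. Mylpf (0.966 CPM) and Atp2a1 (0.154 CPM) were lowest of the PE2 libraries in peg/peg replicate 3, and Myh4 (0.988 CPM) was highest. The 7 hepatocyte markers summed to 2.42 to 5.19 CPM in the HDR libraries and 1.63 to 18.1 CPM in the PE2 libraries.

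Between aortae of 1 genotype, most of the 9 genes varied together, C3 and Cfb less so in HDR. The correlation of each gene with the mean of the other 8, over deviations of log2 CPM from the genotype mean, was 0.93 for C4b, 0.90 for C1ra and 0.89 for C1s1 over 10 HDR libraries (Pearson's r). It was lowest for C3 (0.31) and Cfb (0.41). Over the 8 PE2 libraries it ran from 0.64 for Cfb to 0.93 for C3. Without WT_3 and peg/peg replicate 3 the values were 0.32 to 0.95 over 9 libraries and 0.77 to 0.94 over 7. Genes of 1 library share its depth and its mix of cells, so these are descriptions. Only the genotype mean was removed, not the split of HDR libraries by Y-linked transcripts. The 4 libraries with them averaged 2.58 times the other 6 for C7, 2.09 times for C4b and 0.98 times for C3. The part of this split in the HDR correlations here and below was not tested.

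Other genes were ranked by the lower of their correlations with the mean of the 9 in HDR and in PE2. By this measure the first was Scara5, a ferritin receptor expressed in fibroblasts, with r of 0.97 in HDR and 0.99 in PE2 among 14752 genes compared, and it was first also without the same 2 libraries (0.96 and 0.97). The next 9 were Rinl, Cd209g, Lhfpl2, Nxpe5, Ctss, Ptpro, Adgre1, Cd209a and Wfdc17, of which Adgre1 encodes the macrophage antigen F4/80 and Ctss a lysosomal protease. Without the 2 libraries the next 9 were Steap4, Cd209a, Gfpt2, Lhfpl2, Dpt, Litaf, Medag, Tpm3 and F13a1, so 3 genes were shared, Scara5, Lhfpl2 and Cd209a. The mean of the 9 followed that of the macrophage markers, with r of 0.91 in HDR and 0.96 in PE2, and that of the fibroblast markers, with r of 0.90 and 0.88. For smooth muscle markers r was -0.12 and -0.16, for endothelial markers -0.01 and -0.18, and for interferon-response genes -0.05 and 0.64. Acute-phase and NF-kB targets gave 0.91 in HDR and 0.34 in PE2, or 0.94 and 0.71 without the 2 libraries, lymphocyte markers 0.53 and 0.36, and adipocyte markers 0.42 and -0.34. Without peg/peg replicate 3, smooth muscle markers in PE2 gave -0.87, endothelial markers 0.65 and adipocyte markers 0.54.

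In PE2, fitted with all libraries, the macrophage and fibroblast markers lay the other way from HDR. These directions were not fitted without peg/peg replicate 3, which had the highest macrophage sum. All 10 macrophage markers were higher in peg/peg, 0 at an unadjusted p under 0.05, with sums of 94.9 to 361 CPM in wild type and 165 to 595 CPM in peg/peg, or 165 to 263 CPM without replicate 3. Of the fibroblast markers 9 of 10 were higher, with sums of 16633 to 25259 CPM and 18874 to 27685 CPM. With all libraries, all 8 endothelial markers were lower in peg/peg (median -0.24), as were 7 of 8 lymphocyte (-0.47) and 7 of 8 adipocyte markers (-0.65). Of 10 interferon-response genes 8 were higher (0.19), as were 5 of 8 smooth muscle markers (0.43) and 5 of 6 acute-phase and NF-kB genes tested (0.16). Smooth muscle sums were 27134 to 45639 CPM in wild type and 27765 to 58080 CPM in peg/peg, or 27765 to 44618 CPM without replicate 3. Endothelial sums were 1491 to 2290 CPM in wild type and 695 to 3119 CPM in peg/peg, or 1369 to 3119 CPM without replicate 3. Adipocyte sums were 1678 to 4972 CPM in wild type and 207 to 3660 CPM in peg/peg, or 1530 to 3660 CPM without replicate 3. The part of these cell types and genes in the values of the complement genes was not tested.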

How the data were processed

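Total RNA of single mouse aortae was sequenced after poly(A) selection. Per the labels and the study's methods, the authors aligned reads with STAR 2.7.0f to GRCm38 with Gencode annotation and counted them per gene with featureCounts of Subread 1.6.4. The files hold the deposited raw counts per gene. Tables of normalized values were not used. The labels give an unstranded kit and the methods a stranded one, and the strand setting is not given in the sources used here. The read lengths given also differ between them.

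Columns of the HDR table matched a genotype but no single animal, whereas PE2 columns matched genotype and replicate. Nothing besides separate labels and single aortae shows how replicates relate to litters, so p-values measure the spread between these libraries. No 2 libraries of a group agreed within sampling noise.

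CPM used TMM library sizes (edgeR 4.0.16, R 4.3.3). Genes passing filterByExpr entered edgeR's quasi-likelihood test, fitted within each experiment across all genes with Benjamini-Hochberg adjustment and a threshold of 0.05, and across all 18 libraries for the difference of the changes. DESeq2 1.42.0 and limma-voom (limma 3.58.1) were alternatives, beside other size factors, filters, robust dispersions, an adjusted p under 0.10, sex, a replicate block and leaving out each library. Likeness used log2 CPM with a prior count of 2, after the genotype mean was removed. Fits were tested on simulated counts. Levels per length used merged exons of a Gencode release for GRCm38 that may differ from the one counted on.

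The 9 members, the complement and marker lists and the tests were chosen with earlier results of these data known. Genes named are the 9, other complement genes called or listed beforehand by role, the 10 most like the members, and Tspan2. Des, Actg2, Hoxa13, Upk1a, Krt5, Ddx3y, Gm20547 and the genes at an unadjusted p under 0.05 were named after their values were seen.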

Additional observations from a re-analysis of the deposited data

Results flagged for a closer look

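In each group of 4 or 5 libraries, the gap between the highest or lowest library and its neighbour was compared with the range of the group, by Dixon's 95% critical value (0.829 for 4 libraries, 0.71 for 5), for the 9 complement genes and 14 others in CPM. For independent values with a normal spread, chance marks about 5% of groups, and 10 of 92 were marked. CPM of genes that vary together in the same libraries need not follow that rate, so nothing is read from the share marked. Of these, 7 were the library labelled peg/peg replicate 3 in its group, which was high for Cd55 (237 CPM), C1qa (124 CPM), C1qb (114 CPM), C1qc (114 CPM), Cfp (44.2 CPM), C3ar1 (14.5 CPM) and C4a (1.45 CPM). These 7 values come from 1 library and are not independent of each other. PE2 wild-type replicate 1 was high for C1ra (82.6 CPM), WT_6 for Cfb (1.52 CPM) and Mut_4 for Cfi (0.339 CPM).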

How the results depend on the processing

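The count of called members was 0 in HDR, in PE2 and for the difference between experiments under every setting run, and the count of called other complement genes was 0 in HDR throughout. The leave-one-out ranges were 0 to 0 for all of these and for the other complement genes in PE2. In PE2, other complement genes called went from 0 to 1 with the DESeq2 Wald test and to 2 with that test without peg/peg replicate 3, an alternative added after seeing the data; the cause was not tested. Among log2 fold changes of single members, 160 of 161 alternative values in HDR and 150 of 151 in PE2 moved by less than 1 SD of the libraries, and 6 and 10 changed sign. The exceptions were Cfb in HDR without WT_6 (0.04) and Cd55 in PE2 without peg/peg replicate 3 (0.08).

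Deviations of same-numbered PE2 libraries correlated at 0.02, -0.23, -0.06 and -0.29, so the numbers were not taken as pairs; with the replicate block the count of called members was 0, and that of other complement genes 0. No paired analysis was possible for HDR because its columns carry no label number.

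With 4 or 5 libraries a group, no member was called in either experiment. For C3 and C7 in PE2, changes of the size seen could not be told from the wide spread within groups. Cfb rested on 1 to 36 counts per library, and its direction in HDR depended on WT_6.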
